A study of Mus musculus with 16 samples.

Results

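The genes described here are mouse gene models that carried only a provisional symbol in the deposited table: RIKEN cDNA clone names that end in Rik, and predicted genes named Gm with a number. They were chosen by symbol and by total count alone, as rows of these 2 kinds with at least 1000 raw counts summed over all libraries, apart from 2 symbols that the choice leaves out. That gave 295 genes of 35976 rows, 202 Rik and 93 Gm genes, out of 12417 rows with such a symbol, of which 7557 had at least 1 count. The genes just inside the threshold were Gm34939, 5430416N02Rik and Gm4997 with 1002, 1009 and 1011 counts. Those just outside were Gm39648, Gm30340 and 2310068J16Rik with 999, 994 and 993.

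A provisional symbol says only that a transcript was once sequenced or predicted before its product was studied. Such names therefore cover unlike things: protein-coding genes that have since been given a usual name, long noncoding RNAs that are transcribed and spliced but not translated, and pseudogenes, which are copies of other genes. Long noncoding RNAs are often transcribed beside or against a coding gene, and their levels often differ more between cell types than those of coding genes.

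The cells came from neural tube organoids on day 4, grown from R1, a single mouse embryonic stem cell line whose labelled genotype is FOXA2-Venus, a reporter that joins FOXA2 to a yellow fluorescent protein. All groups had retinoic acid for 18 hours. Cells were grouped by FOXA2 level into negative, low, medium and high gates with 4 libraries each, and RNA was measured by BRB-seq, which barcodes each bulk sample, pools the samples early and reads mostly the 3′ ends of transcripts. FOXA2 is a forkhead transcription factor of the floor plate, which lies at the ventral midline of the developing spinal cord and brain. The labels number the libraries of a gate without saying whether they are separate cultures, and the p-values therefore rest on a library-to-library spread that may be technical. In bulk libraries, fewer cells of a type and less RNA per cell cannot be told apart.

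Totals ran from 3268948 to 9961032 counts per library. Foxa2 itself averaged 2.91 ± 1.68 CPM (counts scaled to a common library size) in the negative, 11.9 ± 3.02 in the low, 52.0 ± 9.36 in the medium and 114 ± 18.2 in the high gate (SD, n = 4), and it set the gates. Markers of several cell types moved with the gates. The summed level of 12 pluripotency and epiblast genes was 861 to 1451 CPM in the negative libraries, 288 to 432 in the low, 232 to 373 in the medium and 244 to 291 in the high ones. For 8 neural progenitor genes, of which Sox1 and Sox2 were listed at 0 in every library, it was 339.9 to 401, 329.6 to 419, 199.7 to 245 and 85.2 to 121 CPM in the same order. For 7 floor plate genes other than Foxa2 it was 48.3 to 57.5, 78.6 to 98.9, 136 to 177 and 230.1 to 302 CPM. For 10 endoderm genes it was 50.6 to 55.1, 99.8 to 118, 180.5 to 254 and 296 to 309.8 CPM. For 5 notochord genes (Noto at 0) it was 111 to 133, 146 to 229, 237 to 298 and 293 to 359.9 CPM, most of it from Krt18, a keratin of simple epithelia in general, and without Krt18 7.58 to 9.10, 7.69 to 14.1, 21.4 to 32.3 and 55.4 to 59.4 CPM. For 5 neuronal genes it was 136 to 218, 76.4 to 110.2, 68.5 to 77.8 and 54.2 to 81.2 CPM. Between the high and the negative gate, 6 of 6 tested floor plate markers other than Foxa2, 3 of 6 endoderm and 4 of 4 notochord markers were higher, and 6 of 6 neural progenitor, 10 of 11 pluripotency and 3 of 4 neuronal markers were lower. Most of the endoderm sum in the high gate came from Sox17 and Cldn6, which averaged 134.4 and 148.5 CPM there, and Ttr also rose. Gata4, Cxcr4 and Foxa3 averaged 3.97, 2.19 and 1.83 CPM in the negative and 2.13, 1.89 and 1.54 in the high gate. Gata6, Afp, Apoa1 and Hnf4a were not tested. In the other lists Shh (floor plate), Pou5f1 (pluripotency), Dcx (neuronal), Sox1, Sox2 and Noto were not tested either. None of these genes passed the filter on low counts. The part of any of these cell types in the results below was not tested.

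The 295 genes together held 1557260 counts, or between 1.49% and 1.69% of each library. Their share averaged 1.60% ± 0.063 in the negative, 1.58% ± 0.035 in the low, 1.56% ± 0.025 in the medium and 1.56% ± 0.046 in the high gate (SD, n = 4), so their total was nearly the same in every gate. The median gene had 2505 counts, 29 genes had more than 10000, and the 8 with the most counts held 27.6% of all. Each of the 295 was detected in every library and passed the filter on low counts. In the RefSeq table of build GRCm38.p6, 223 matched by symbol and 61 by synonym, all 61 of which now have a usual name, and 11 did not match. By annotation, 156 were protein-coding, 107 were long noncoding RNAs, 22 were pseudogenes and 10 were of another class or not classed. Of 287 genes with a position, 100 overlapped a named coding gene, 88 on the opposite and 10 on the same strand. For 95 of the 100, the gene body, introns included, touched an exon of the coding gene. Another 112 lay within 10 kb of one. The strand setting of the counting is not given in the sources used here, so reads from stretches that both genes of a pair share cannot be told apart. Whether exons of both genes coincide was not examined.

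The high gate was set against the negative gate, the comparison with the widest difference in FOXA2. Of the 295 genes, 41 were called in edgeR's quasi-likelihood test at an adjusted p under 0.05, which is 13.9%, against 17% of all 13891 genes tested. Of the 41, 12 rose in the high gate (8.42% of all genes did) and 29 fell (8.55% of all genes did). The share lies near that of genes at large, and more of these genes fell than rose. The median log2 fold change was -0.02 over the 295 genes and 0.00 over all genes tested. The high and negative libraries did not overlap for 35 of the 41. Over all genes tested, called or not, 21.6% had gates that did not overlap. These shares cannot be set against each other, since the 41 were picked by a test of the same difference. The mean level of 28 of the 41 followed the order of the gates. The share over all genes was not counted. A test of the 2 end gates picked the 41, which favours such an order. Of the 254 genes not called, 231 had an approximate 95% interval of the log2 fold change within 1 unit of 0, and 140 had one within 1.5-fold.

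The classes were called at different rates. Of 107 long noncoding RNAs 22 were called (20.6%), 5 higher and 17 lower. Of 763 other long noncoding RNAs tested 108 were called (14.2%), 33 higher and 75 lower, so falls outnumbered rises there too. Of 156 protein-coding genes 17 were called (10.9%), 7 higher and 10 lower, against 2122 of 12057 other coding genes (17.6%), 1088 higher and 1034 lower. Of 22 pseudogenes edgeR called 0, with 1 at an unadjusted p under 0.05 and 0 by DESeq2. Of 83 other pseudogenes tested it called 2 (2.41%), so few were called in either set. The differences between these rates were not tested. Depth and spread differed with them: the long noncoding RNAs had a median of 1768 counts and a median biological coefficient of variation of 0.194, and the other long noncoding RNAs tested had 250 counts and 0.346. Leaving out single libraries took the falling long noncoding RNAs to between 13 (without negative 4) and 19, and the rising coding genes from 7 to 4 without high 1. Without low 1 and medium 2, 16 coding genes fell in place of 10.

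**Figure D1:**
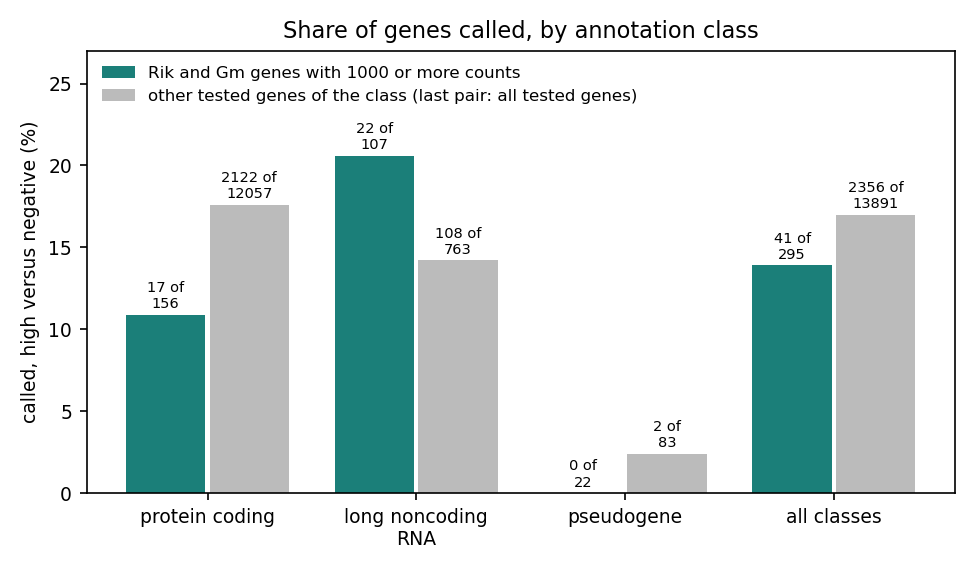
Percent of genes called between the high and the negative gate (adjusted p under 0.05) by annotation class, with the genes of provisional name beside the other tested genes of the class, and beside all tested genes in the last pair. Numbers over the bars give the genes called of those tested; the long noncoding RNAs stand at 20.6% beside 14.2%, and the coding genes at 10.9% beside 17.6%.

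The start regions of 5 called genes are shown as examples: Gm41845 and Gm2694, long noncoding RNAs that fell, 3010026O09Rik, which rose in the high gate and not in the low or medium one, and 1700052K11Rik and Gm32384, whose start regions held a forkhead motif. Each runs from 250 bases before to 50 bases after the start of transcription in RefSeq (build GRCm38.p6), read 5′ to 3′ on the strand of the gene. They lie at chr19:40271316-40271615 on the plus strand, chr8:87472866-87473165 on the plus strand, chr11:50174601-50174900 on the plus strand, chr11:105181384-105181683 on the minus strand and chr11:68983519-68983818 on the minus strand. The start regions of Gm2694 and 3010026O09Rik lie inside their GENCODE gene bodies, which begin at chr8:87460469 and chr11:50174444. Capitals mark a match to TGTTTAC or TATTTAC on either strand (GTAAACA or GTAAATA when read from the other strand), letters of the kind that forkhead factors bind.
Gm41845: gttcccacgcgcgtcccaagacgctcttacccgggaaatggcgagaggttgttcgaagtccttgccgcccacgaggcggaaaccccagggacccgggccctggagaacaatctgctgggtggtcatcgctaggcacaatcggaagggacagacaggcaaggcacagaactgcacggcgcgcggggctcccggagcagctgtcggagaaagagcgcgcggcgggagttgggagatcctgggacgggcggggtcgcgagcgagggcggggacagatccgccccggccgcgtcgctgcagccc
Gm2694: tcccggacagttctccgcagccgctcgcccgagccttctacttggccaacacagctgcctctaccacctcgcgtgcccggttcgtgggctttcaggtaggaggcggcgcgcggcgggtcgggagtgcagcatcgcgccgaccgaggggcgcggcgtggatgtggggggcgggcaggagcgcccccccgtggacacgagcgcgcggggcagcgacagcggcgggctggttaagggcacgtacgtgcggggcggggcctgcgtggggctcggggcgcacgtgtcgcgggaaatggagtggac
3010026O09Rik: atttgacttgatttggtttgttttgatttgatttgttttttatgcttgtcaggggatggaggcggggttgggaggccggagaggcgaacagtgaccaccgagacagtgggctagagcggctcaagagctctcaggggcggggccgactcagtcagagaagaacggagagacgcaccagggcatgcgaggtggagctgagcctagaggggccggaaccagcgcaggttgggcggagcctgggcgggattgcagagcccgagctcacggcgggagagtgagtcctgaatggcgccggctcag
1700052K11Rik: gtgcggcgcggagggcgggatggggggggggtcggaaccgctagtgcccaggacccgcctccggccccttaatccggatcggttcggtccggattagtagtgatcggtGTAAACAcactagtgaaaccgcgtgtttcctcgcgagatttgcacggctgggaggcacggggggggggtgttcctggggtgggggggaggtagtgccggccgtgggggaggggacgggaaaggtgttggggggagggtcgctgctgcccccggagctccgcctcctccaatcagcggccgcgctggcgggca
Gm32384: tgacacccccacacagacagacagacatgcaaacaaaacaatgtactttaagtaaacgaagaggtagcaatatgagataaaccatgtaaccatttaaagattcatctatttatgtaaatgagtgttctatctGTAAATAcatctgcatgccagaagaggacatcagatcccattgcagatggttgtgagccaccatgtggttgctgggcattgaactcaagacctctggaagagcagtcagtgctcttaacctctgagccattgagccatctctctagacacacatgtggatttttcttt
The first 3 hold neither motif, and all 5 lack ATGCAAAT, the octamer of POU factors. These 3 motifs share no letters in any match here. Over 218 of the 295 genes with a start region in the table, TGTTTAC was found in 6 (2.75%), TATTTAC in 2 (0.917%) and ATGCAAAT in 1 (0.459%). Over 27025 start regions of all genes the shares were 3.55%, 3.02% and 1.75%. Of the 31 called genes with a start region, 2 held TGTTTAC, 1 held TATTTAC and 0 held ATGCAAAT. The match to TGTTTAC that is not shown was in Gm42048. The start regions of the 218 were richer in CG than those of all genes, with a median of 21 CG pairs against 7 and a G and C content of 60.5% against 52.7%. A match describes letters, not a bound site.

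Among the genes that rose, 3010026O09Rik changed the most. Its current name is Mrnip, a protein that works with the MRN complex in the repair of broken DNA, and it lies on chromosome 11, where its 3′ end overlaps that of Sqstm1, the autophagy receptor p62, on the opposite strand. Its level was 32.2, 25.2, 31.1 and 31.4 CPM in the negative libraries, 25.8, 43.6, 31.9 and 26.7 in the low, 31.1, 25.7, 40.6 and 30.0 in the medium and 80.8, 85.7, 69.8 and 68.2 in the high libraries. All 4 high libraries stood above every other library, and the other 3 gates overlapped. High exceeded negative (log2 fold change 1.34, SE 0.159, adjusted p = 2.58e-07) and also medium (log2 fold change 1.26, SE 0.159, adjusted p = 2.53e-05). Against negative, the low and the medium gate did not pass (log2 fold changes 0.09 and 0.08, adjusted p = 0.878 and 0.84). Sqstm1 averaged 148 ± 4.90 CPM in the high and 143 ± 8.34 CPM in the negative gate (SD, n = 4; adjusted p = 0.781).

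For Gm31734 and Gm4924 the mean was higher in each successive gate, although no difference between medium and low or between high and medium passed (adjusted p from 0.658 to 0.929). Gm31734, a long noncoding RNA, overlaps the start of Tcf7l2 on chromosome 19, a gene that encodes a transcription factor of the WNT pathway. Its level was 54.3, 109.7, 92.6 and 77.8 CPM in the negative, 129, 141, 99.0 and 76.7 in the low, 137, 194, 147 and 138 in the medium and 184, 225, 199 and 152 in the high libraries. High and negative did not overlap (log2 fold change 1.19, SE 0.212, adjusted p = 0.000733). Tcf7l2 also rose, with 57.0, 48.1, 42.1 and 63.9 CPM in the high libraries and 19.3, 24.5, 26.4 and 23.6 in the negative ones (log2 fold change 1.17, SE 0.269, adjusted p = 0.0057). The 4 high libraries of Tcf7l2 also lay above the 4 negative ones. Gm4924, a coding gene on chromosome 10, was at 12.8, 16.0, 12.9 and 12.1 CPM in the negative, 21.7, 22.8, 19.1 and 20.9 in the low, 25.0, 21.1, 27.3 and 25.5 in the medium and 25.8, 34.9, 21.7 and 41.4 in the high libraries (log2 fold change 1.19, SE 0.18, adjusted p = 1.28e-05, high versus negative). All negative libraries lay below all of the others.

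5730559C18Rik, now named Inava, an activator of innate immune signalling that also acts at epithelial cell junctions, had 40.2, 40.3, 30.4 and 44.5 CPM in the negative, 57.6, 48.4, 49.8 and 49.2 in the low, 65.5, 61.7, 49.6 and 63.3 in the medium and 70.8, 70.1, 77.2 and 70.3 in the high libraries. The high libraries lay above all others and the negative ones below all others (log2 fold change 0.89, SE 0.128, adjusted p = 5.83e-06). A pair of long noncoding RNAs transcribed against coding genes also rose. Gm36449, opposite Eef2k, had 53.2, 41.5, 44.7 and 49.3 CPM in the high libraries and 19.6, 20.7, 20.4 and 36.0 in the negative ones (log2 fold change 0.95, SE 0.234, adjusted p = 0.00744). 1700052K11Rik, opposite the kinase gene Tlk2, had 15.8, 9.86, 17.7 and 11.9 CPM in the high and 6.16, 8.51, 4.73 and 9.52 in the negative libraries (log2 fold change 0.93, SE 0.226, adjusted p = 0.00386). Both coding partners were not called (log2 fold changes 0.20 for Eef2k and -0.06 for Tlk2, adjusted p = 0.754 and 0.879).

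The remaining rises were smaller. 6330403K07Rik, a coding gene on chromosome 11, averaged 17.2 ± 3.63 CPM in the high and 9.43 ± 1.16 in the negative gate (log2 fold change 0.86, SE 0.205, adjusted p = 0.00352). 5430405H02Rik, a long noncoding RNA opposite Tgif2, averaged 39.8 ± 3.95 and 24.6 ± 2.32 CPM in these gates (log2 fold change 0.69, SE 0.164, adjusted p = 0.00311), and Tgif2 was not called (adjusted p = 0.799). The other 4 calls each depended on single libraries, and 3 of them on other settings too. 1600020E01Rik, a long noncoding RNA across from Pcbp1, had a log2 fold change of 0.56 (adjusted p = 0.0281), lost without any 1 of high 2, high 4, negative 2 or negative 4 (log2 fold change 0.49 to 0.55, adjusted p 0.0635 to 0.0912). 1600020E01Rik also missed the threshold after thinning to the smallest total (log2 fold change 0.51, adjusted p = 0.0825). 9530068E07Rik, a coding gene, had 0.46 (adjusted p = 0.0475), lost without any 1 of high 1, high 3, high 4, medium 3, low 3, low 4, negative 1 or negative 2 (log2 fold change 0.31 to 0.48, adjusted p 0.0527 to 0.212). The call of 9530068E07Rik also did not hold with DESeq2, after thinning to the smallest total or with a spread not estimated robustly (log2 fold change 0.45 to 0.46, adjusted p 0.0575 to 0.0762). 2810474O19Rik, now Resf1, which acts in the silencing of retroelements, had 0.38 (adjusted p = 0.0179), lost without any 1 of high 1 or negative 1 (log2 fold change 0.32 to 0.34, adjusted p 0.0673 to 0.0845). 0610009O20Rik, now Dele1, a relay of mitochondrial stress, had 0.37 (adjusted p = 0.046), lost without any 1 of high 1, high 2, high 3, high 4, medium 1, low 3, low 4, negative 2, negative 3 or negative 4 (log2 fold change 0.29 to 0.41, adjusted p 0.0505 to 0.173). 0610009O20Rik also missed the threshold with no filter on low counts, with the replicate number as a block, after thinning to the smallest total or with a spread not estimated robustly (log2 fold change 0.35 to 0.37, adjusted p 0.0515 to 0.0943).

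**Figure D2:**
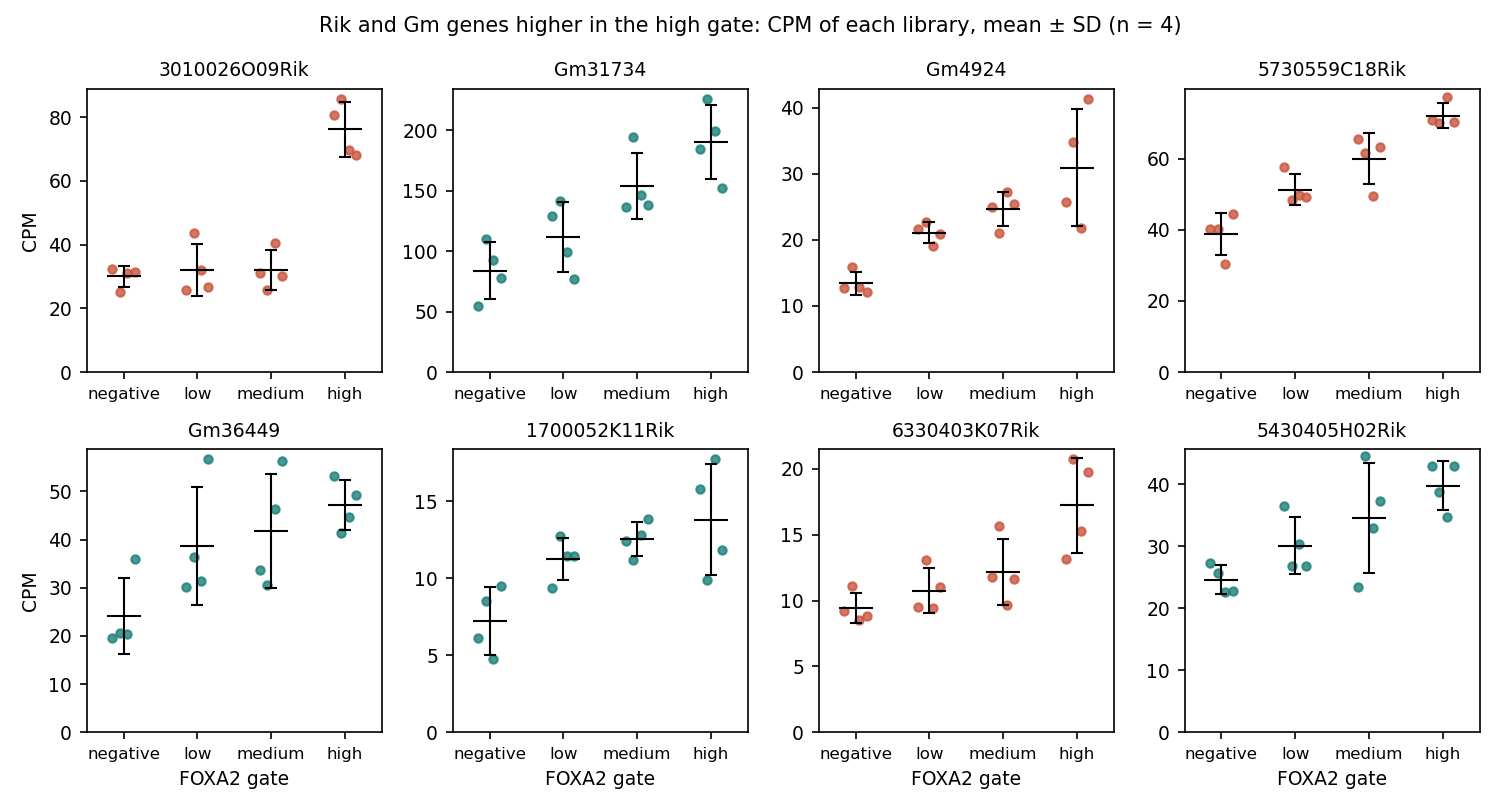
CPM (vertical axis, from 0) of 8 genes that were higher in the high than in the negative gate, for each library (points) by FOXA2 gate from negative to high, with mean ± SD (n = 4). 3010026O09Rik stays level over the negative, low and medium gates and stands at 68.2 to 85.7 CPM in the high libraries, and the mean of 5730559C18Rik is higher in each successive gate.

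Among the 29 genes that fell, a group was already low in the low gate. Gm35429, a long noncoding RNA on chromosome 4, was at 25.6, 57.1, 19.5 and 39.7 CPM in the negative, 5.70, 10.9, 10.2 and 7.69 in the low, 8.27, 6.10, 7.61 and 5.24 in the medium and 6.98, 13.2, 6.47 and 3.35 in the high libraries. All negative libraries lay above all others, and the low, medium and high gates overlapped. Against negative, the fall had a log2 fold change of -2.05 in the low, -2.39 in the medium and -2.24 in the high gate (adjusted p = 0.000776, 0.000107 and 0.000134). Gm34338, which is not classed, was at 40.8, 106, 67.0 and 70.8 CPM in the negative, 20.5, 25.6, 23.7 and 39.5 in the low, 22.2, 21.8, 29.6 and 31.3 in the medium and 21.6, 19.0, 17.6 and 18.3 in the high libraries. Again every negative library was the higher (log2 fold change -1.38, SE 0.231, adjusted p = 0.000884 for low and log2 fold change -1.89, SE 0.243, adjusted p = 1.02e-05 for high, both against negative).

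Gm12216, a long noncoding RNA in RefSeq that lies near Irf1 on chromosome 11, had the same order. It was at 29.3, 55.6, 38.04 and 51.0 CPM in the negative, 17.9, 21.4, 20.5 and 24.7 in the low, 12.0, 15.2, 18.7 and 24.8 in the medium and 22.4, 22.8, 20.2 and 19.8 in the high libraries. The negative libraries lay above all others (log2 fold change -1.05, SE 0.191, adjusted p = 0.000756 for low and log2 fold change -1.03, SE 0.195, adjusted p = 0.000296 for high, both against negative), and Irf1 was not called between high and negative (adjusted p = 0.941). 1110008L16Rik, now Prorp, the nuclease subunit of mitochondrial RNase P, averaged 31.0 ± 4.38 CPM in the negative, 20.9 ± 2.72 in the low, 18.8 ± 3.22 in the medium and 19.6 ± 3.29 in the high gate (SD, n = 4; log2 fold change -0.65, SE 0.166, adjusted p = 0.00629 for high versus negative). In these libraries the pluripotency and epiblast markers had the same order, with 861 to 1451 CPM in the negative gate and at most 432 CPM in each of the others. The neuronal markers did too, with 136 to 218 CPM in the negative gate and at most 110.2 CPM in each of the others. The part of either set of markers in these 4 falls was not tested.

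A further group was not called in the low gate and was lowest in the high gate. Gm41845, a long noncoding RNA opposite Pdlim1, which encodes an actin-associated protein, had the largest fall. Its level was 58.5, 85.8, 67.0 and 124 CPM in the negative, 56.5, 58.6, 85.3 and 110.1 in the low, 34.0, 23.2, 57.0 and 70.2 in the medium and 13.5, 15.7, 22.7 and 16.7 in the high libraries. The high libraries lay below all others and the other gates overlapped (log2 fold change -2.29, SE 0.384, adjusted p = 0.00102, high versus negative). Against negative the low and medium gates did not pass (log2 fold changes -0.12 and -0.86, adjusted p = 0.93 and 0.176). Pdlim1 averaged 24.9 ± 3.52 CPM in the high and 30.5 ± 4.15 in the negative gate (adjusted p = 0.198).

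Gm2694, a long noncoding RNA that overlaps Cbln1 on the opposite strand of chromosome 8, was at 52.2, 62.7, 47.0 and 57.5 CPM in the negative, 45.0, 64.8, 58.3 and 59.3 in the low, 45.5, 30.5, 43.2 and 46.3 in the medium and 20.3, 27.3, 21.3 and 19.5 in the high libraries. The high libraries were the lowest without overlap. High was below negative (log2 fold change -1.31, SE 0.156, adjusted p = 2.71e-07) and below medium (log2 fold change -0.91, SE 0.158, adjusted p = 0.0015). Cbln1, a secreted synaptic protein, averaged 0.946 ± 0.542 CPM in the high and 2.54 ± 1.54 in the negative gate, with overlap (adjusted p = 0.105). The neural progenitor markers were at 85.2 to 121 CPM in the high libraries, against 199.7 to 245 in the medium and 339.9 to 401 in the negative ones, and their part in this fall was not tested.

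Gm39127 and Gm20758, long noncoding RNAs far from named coding genes, took the same course. Gm39127 was at 13.6, 17.7, 17.3 and 22.3 CPM in the negative, 8.48, 14.8, 13.8 and 20.3 in the low, 7.08, 5.94, 12.3 and 12.5 in the medium and 5.32, 3.79, 5.39 and 7.30 in the high libraries (log2 fold change -1.72, SE 0.278, adjusted p = 3.81e-05, high versus negative). Gm20758 was at 16.2, 27.6, 12.7 and 32.2, 15.3, 20.8, 26.7 and 27.9, 12.2, 7.75, 16.4 and 19.1 and 7.98, 6.83, 9.40 and 8.83 CPM in the libraries of the same gates (log2 fold change -1.43, SE 0.302, adjusted p = 0.00196). In both, the high libraries lay below the negative ones without overlap, and the low and negative gates overlapped.

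**Figure D3:**
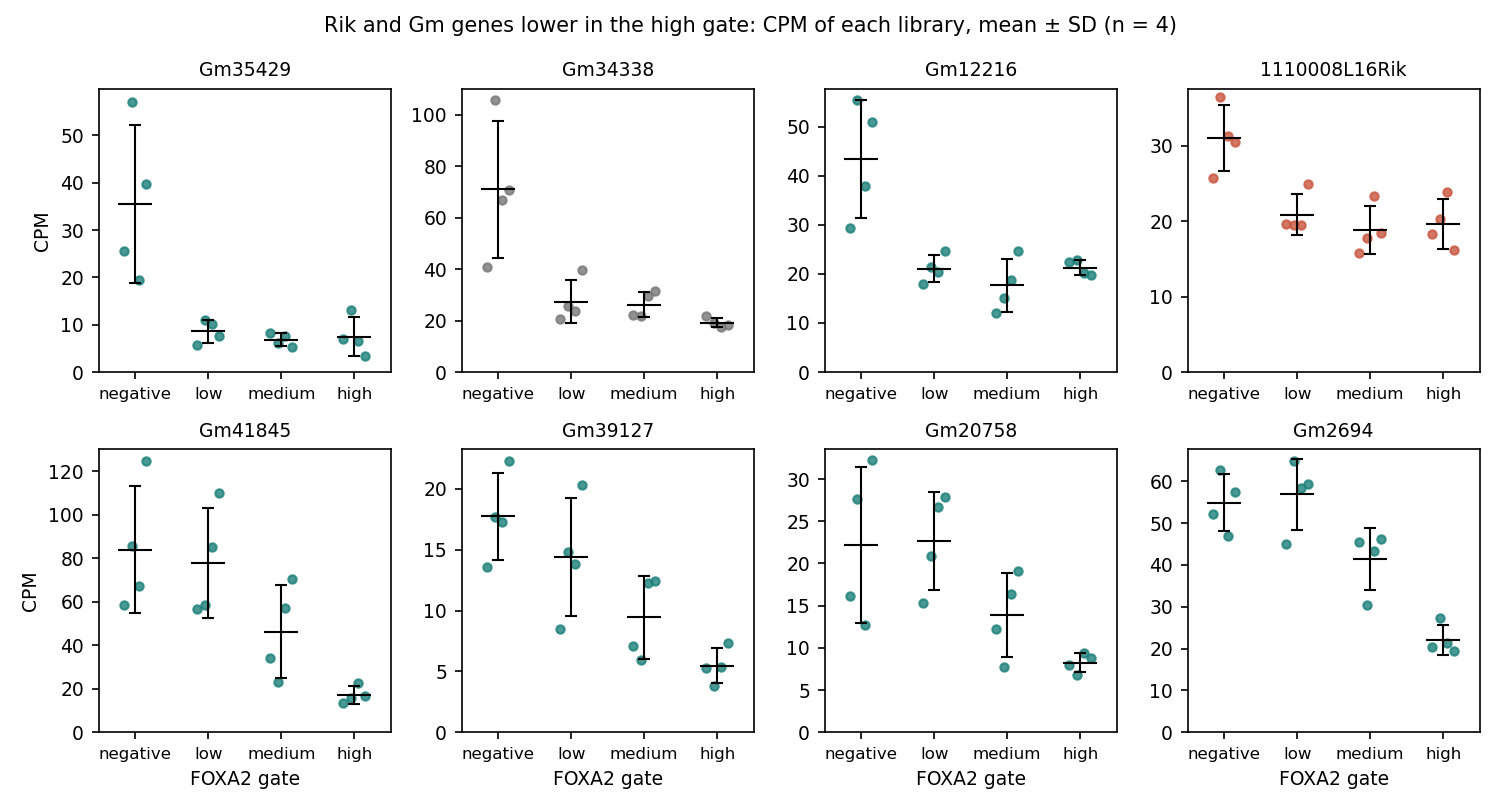
CPM (vertical axis, from 0) of 8 genes that were lower in the high than in the negative gate, for each library (points) by FOXA2 gate from negative to high, with mean ± SD (n = 4). In the upper row the low gate is already near the high one; in the lower row the low gate is near the negative one.

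The other falls ran from -1.07 to -0.34 on the log2 scale, apart from Gm34087 at -1.27. Gm34654 averaged 8.47 ± 2.99 CPM in the high and 17.8 ± 6.51 in the negative gate (log2 fold change -1.07, SE 0.255, adjusted p = 0.00342). 4931415C17Rik, opposite Tubgcp3, averaged 10.1 ± 2.11 and 20.3 ± 5.36 CPM in these gates (log2 fold change -1.01, SE 0.238, adjusted p = 0.0031), and Tubgcp3 was not called (adjusted p = 0.62). Gm3718, not classed, B130055M24Rik, which overlaps Prr14 on the same strand, and Gm32384, near Rangrf, fell by 0.98, 0.88 and 0.86 on the log2 scale (adjusted p = 0.00449, 0.000919 and 0.00719). The call of Gm32384 did not hold when negative 4 was left out (-0.60 on the log2 scale, adjusted p = 0.0771). Among coding genes, 2810417H13Rik, now Pclaf, a partner of the replication clamp PCNA, had 163, 159.6, 165 and 133 CPM in the high and 203, 229, 199 and 234 in the negative libraries, without overlap (log2 fold change -0.48, SE 0.126, adjusted p = 0.00788). E130012A19Rik, now Epop, which joins elongin BC to Polycomb complex PRC2 in embryonic stem cells, fell by 0.63 on the log2 scale (adjusted p = 0.021), a call lost without any 1 of high 1, high 2, high 3, negative 1 or negative 3 (log2 fold change -0.61 to -0.50, adjusted p 0.053 to 0.0943). The 13 called genes outside the naming rule had log2 fold changes between -1.27 and -0.34. They could only be falls, since the rule had named all 12 rises.

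**Figure D4:**
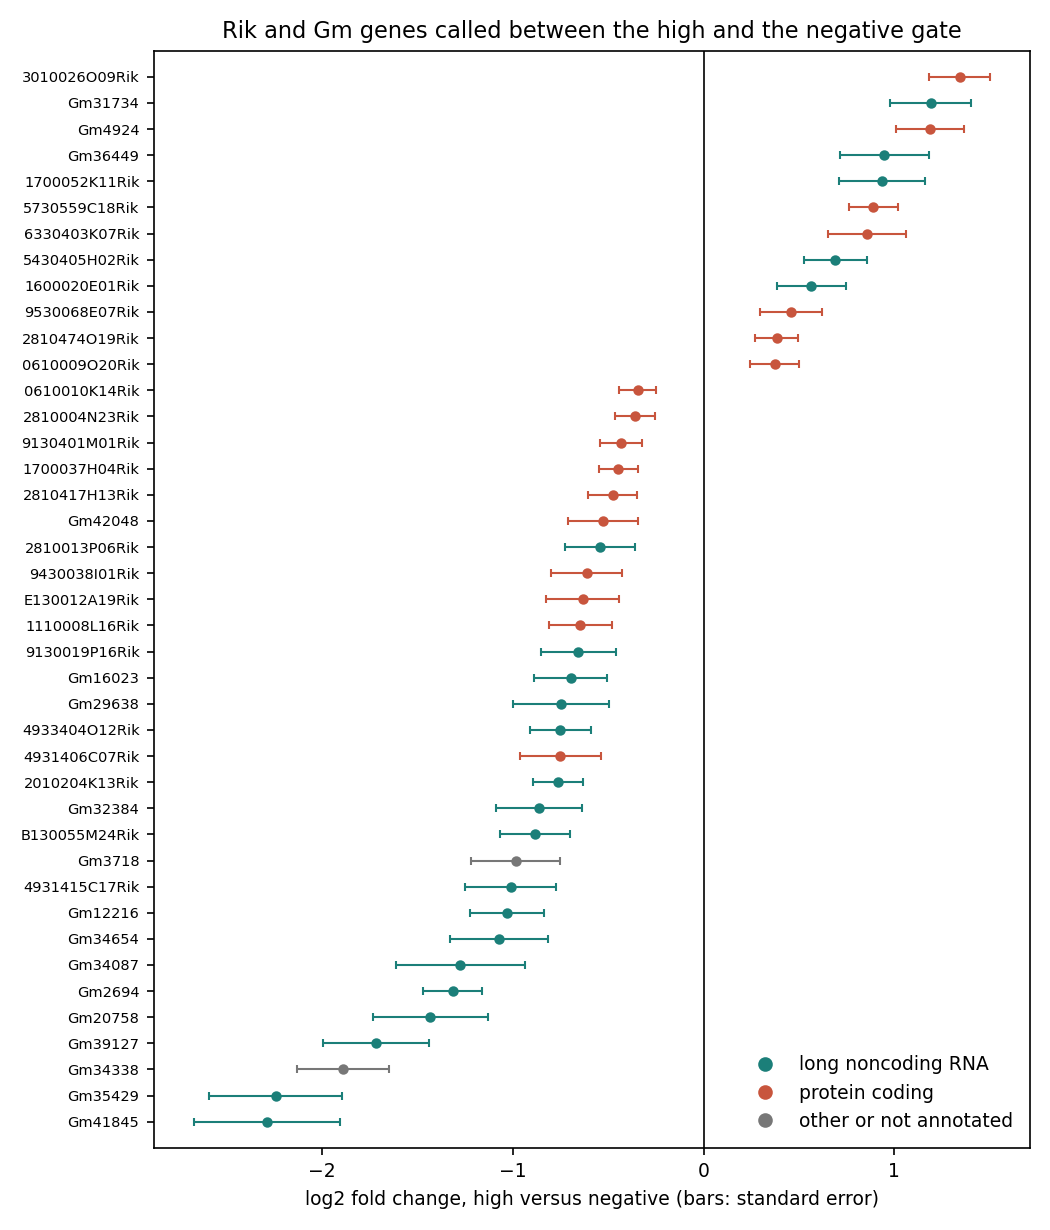
Log2 fold change of high versus negative (horizontal axis; bars show the standard error) for the 41 called genes, coloured by annotation class. The 12 rises end at 1.34 for 3010026O09Rik, the 29 falls at -2.29 for Gm41845, and long noncoding RNAs take most of the largest falls.

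Between the medium and the negative gate, 18 of the 295 genes were called (6.1%), against 8.46% of all genes tested. The 7 that rose (4.24% of all genes did) were all among the 12 that rose in the high gate, and of the 11 that fell (4.22% of all genes did) 9 were among the 29; both comparisons share the negative libraries. Gm4924 averaged 24.7 ± 2.61 CPM in the medium and 13.4 ± 1.73 in the negative gate (log2 fold change 0.88, SE 0.179, adjusted p = 0.00113). 5730559C18Rik averaged 60.0 ± 7.13 and 38.9 ± 5.99 CPM in these gates (log2 fold change 0.62, SE 0.127, adjusted p = 0.00129). Gm12216 had 17.7 ± 5.47 and 43.5 ± 12.0 CPM in these gates (log2 fold change -1.29, SE 0.195, adjusted p = 2.63e-05), while Gm34338 had 26.2 ± 4.92 and 71.0 ± 26.6 (log2 fold change -1.43, SE 0.233, adjusted p = 0.000316). 1110008L16Rik fell by 0.72 on the log2 scale (adjusted p = 0.00393).

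Other calls of the medium gate rested on single libraries. Gm31734 rose by 0.88 on the log2 scale (adjusted p = 0.013), a call lost without medium 2 (log2 fold change 0.76, adjusted p = 0.0579). The call of Gm31734 also did not hold without low 1 and medium 2 together (log2 fold change 0.76, adjusted p = 0.0686). The rise of Gm36449 (0.77, adjusted p = 0.0433) was lost without any 1 of high 1, high 2, high 3, high 4, medium 3, medium 4, low 2, negative 1, negative 2 or negative 3 (log2 fold change 0.59 to 0.78, adjusted p 0.0518 to 0.14). The rise of 1700052K11Rik (0.78, adjusted p = 0.0258) was lost without any 1 of medium 4, negative 1 or negative 3 (log2 fold change 0.63 to 0.72, adjusted p 0.0749 to 0.101), and that of 9530068E07Rik (0.53, adjusted p = 0.0336) without any 1 of medium 2, medium 3, medium 4, negative 1 or negative 2 (log2 fold change 0.38 to 0.56, adjusted p 0.0521 to 0.164). The call of 9530068E07Rik was also lost after thinning to the smallest total or in a fit of the 2 compared gates alone (log2 fold change 0.52 to 0.54, adjusted p 0.0537 to 0.0596). The fall of Gm39127 (-0.91, adjusted p = 0.0214) was lost without any 1 of medium 1, medium 2 or negative 4 (log2 fold change -0.79 to -0.73, adjusted p 0.0832 to 0.0932), and that of E130012A19Rik (-0.69, adjusted p = 0.0184) without any 1 of medium 3, medium 4, negative 1 or negative 3 (log2 fold change -0.66 to -0.56, adjusted p 0.0535 to 0.086). The rise of 2810474O19Rik (0.38, adjusted p = 0.0303) was lost without any 1 of negative 1 or negative 4 (log2 fold change 0.33 to 0.38, adjusted p 0.0684 to 0.108). B130055M24Rik fell (-0.65, adjusted p = 0.0201), a call lost without any 1 of medium 1, medium 2 or negative 2 (adjusted p 0.0545 to 0.143). Gm14403 and Gm32885 also fell (-0.59 and -0.51, adjusted p = 0.041 and 0.0452) and were not called in high against negative. The call of Gm14403 was lost without any 1 of 7 libraries, that of Gm32885 without any 1 of 9, and each under 3 other settings. The count of 7 rises became 4 without medium 4 and 3 without negative 1, and the count of 11 falls became 7 without negative 2 or negative 4.

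Between the low and the negative gate, 9 of the 295 genes were called (3.05%), against 3.76% of all genes tested, 2 higher (1.47% of all genes) and 7 lower (2.29% of all genes). Gm35429, Gm34338 and Gm12216, described above, were among the falls. Gm14403, a long noncoding RNA in RefSeq on chromosome 2, had 16.7, 22.7, 22.02 and 16.6 CPM in the negative, 9.88, 11.3, 10.9 and 11.9 in the low, 9.84, 16.5, 14.0 and 11.3 in the medium and 15.5, 17.4, 16.2 and 14.3 in the high libraries. It was lowest in the low gate (log2 fold change -0.82, SE 0.183, adjusted p = 0.00595 for low versus negative), and high and negative overlapped (adjusted p = 0.311). Gm32885, another long noncoding RNA, averaged 40.1 ± 2.46, 26.2 ± 4.27, 28.3 ± 7.41 and 33.1 ± 3.21 CPM in the gates from negative to high (log2 fold change -0.62, SE 0.161, adjusted p = 0.0224 for low versus negative), a call lost without any 1 of low 1, low 4, negative 1 or negative 2 (log2 fold change -0.61 to -0.54, adjusted p 0.0604 to 0.0989). No gene of the 295 met the rule for an extreme at an intermediate level, called against both the negative and the high gate, which 42 of all genes tested (0.302%) met.

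The other 4 calls between low and negative were weaker. Gm4924 rose by 0.65 on the log2 scale (adjusted p = 0.0322), lost without any 1 of low 1, low 2, low 4, negative 1, negative 3 or negative 4 (log2 fold change 0.60 to 0.67, adjusted p 0.0629 to 0.101). Gm4924 also missed the threshold after thinning to the smallest total or without low 1 and medium 2 together (log2 fold change 0.65, adjusted p 0.05 to 0.0675). The fall of 1110008L16Rik (-0.57, adjusted p = 0.0421) was lost without any 1 of high 1, low 1, low 2, low 3, negative 2, negative 3 or negative 4 (log2 fold change -0.58 to -0.48, adjusted p 0.0508 to 0.18). The call of 1110008L16Rik also did not hold with no filter on low counts, after thinning to the smallest total or without low 1 and medium 2 together (log2 fold change -0.60 to -0.53, adjusted p 0.0502 to 0.0978). 4933434E20Rik, a coding gene opposite Ubap2l, rose (0.42, adjusted p = 0.049), lost without any 1 of high 1, high 2, high 4, medium 4, low 1, low 4, negative 1, negative 2, negative 3 or negative 4 (log2 fold change 0.30 to 0.45, adjusted p 0.0554 to 0.268). 4933434E20Rik also missed the threshold with the replicate number as a block, after thinning to the smallest total, without low 1 and medium 2 together, in a fit of the 2 compared gates alone or with a spread not estimated robustly (log2 fold change 0.31 to 0.43, adjusted p 0.052 to 0.126). Gm13251, now the zinc finger gene Zfp992, fell (-0.66, adjusted p = 0.0482), lost without any 1 of high 1, high 2, high 3, high 4, medium 1, medium 3, medium 4, low 1, low 3, low 4, negative 1 or negative 4 (log2 fold change -0.75 to -0.51, adjusted p 0.0502 to 0.223). The call of Gm13251 also did not hold with no filter on low counts, with the replicate number as a block, without low 1 and medium 2 together or in a fit of the 2 compared gates alone (log2 fold change -0.67 to -0.53, adjusted p 0.0508 to 0.16). The count of 7 falls became 4 without low 1, and that of 2 rises ran from 0 to 3 over the libraries left out.

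Few of these genes were called between neighbouring gates. Between medium and low edgeR called 0 of 295, with 17 at an unadjusted p under 0.05 and 0 by DESeq2, and 0.713% of all genes tested were called. Between high and medium 2 were called (0.678%), against 0.914% of all genes, 3010026O09Rik higher (0.367% of all genes) and Gm2694 lower (0.547% of all genes). Without medium 2 the falls numbered 5, and without low 1 the rises numbered 2. A test for any difference among the 4 gates called 35 of the 295 (11.9%), against 13.7% of all genes, and 23 without negative 2.

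Of the 8 genes with the most counts, 7 were not called between high and negative. Gm36876, a long noncoding RNA on chromosome 11, had the most counts, 117163 in all. Its level was 1562, 955, 1658 and 1532 CPM in the high and 1801, 998, 2229 and 480.2 in the negative libraries, a wide spread within each gate (log2 fold change 0.05, SE 0.435, adjusted p = 0.96, 95% interval -0.80 to 0.90). 2700094K13Rik, now Selenoh, a selenoprotein of the nucleolus, averaged 719 ± 38.9 and 828 ± 58.8 CPM in these gates (adjusted p = 0.202, 95% interval -0.41 to 0.00). 2700060E02Rik, now Rtraf, a protein of the tRNA ligase complex, averaged 599.8 ± 35.6 and 609 ± 30.7 CPM (95% interval -0.19 to 0.15). 2310033P09Rik, 1810022K09Rik (now Rbis, a ribosome biogenesis factor), 0610012G03Rik and 1810058I24Rik (also called Stmp1, which encodes a small mitochondrial protein) had log2 fold changes of 0.10, -0.32, -0.11 and 0.13, with adjusted p-values from 0.193 to 0.524. E2f5, which overlaps 1810022K09Rik on the opposite strand and encodes a cell cycle transcription factor, rose (log2 fold change 0.52, SE 0.127, adjusted p = 0.00399). The 1 called, 2810004N23Rik, fell by 0.36 on the log2 scale (adjusted p = 0.016), lost without any 1 of high 1, high 4 or negative 2 (log2 fold change -0.34 to -0.31, adjusted p 0.0543 to 0.0626).

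1810026B05Rik, now Chaserr, is a long noncoding RNA upstream of Chd2 that is known in mice to hold down the expression of this chromatin remodeller. It averaged 38.2 ± 5.14 CPM in the high and 34.4 ± 3.55 in the negative gate (log2 fold change 0.16, SE 0.159, adjusted p = 0.571, 95% interval -0.15 to 0.47). Chd2 had 79.5, 81.4, 74.3 and 79.7 CPM in the high and 56.0, 61.8, 54.6 and 56.2 in the negative libraries, without overlap (log2 fold change 0.46, SE 0.121, adjusted p = 0.0075). The long noncoding RNAs 2410006H16Rik, beside Lrrc75a, and 2610307P16Rik had log2 fold changes of -0.10 and 0.20 (adjusted p = 0.633 and 0.599). Of the pseudogenes, Gm1821, a copy of the polyubiquitin gene Ubb, had 61.7, 70.6, 65.5 and 70.3 CPM in the high and 57.4, 55.6, 47.7 and 61.0 in the negative libraries (log2 fold change 0.27, SE 0.115, adjusted p = 0.111). Ubb itself had a log2 fold change of 0.17 (adjusted p = 0.229), and reads of the copy and its parent may be split between them. 2610005L07Rik, the other pseudogene taken by the rule, had -0.04 (adjusted p = 0.948).

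Nearby coding genes were compared with these genes in the same contrast. A tested nearest named coding gene was found for 235 of the 295. The neighbours of called genes were called in 5 of 35 cases (14.3%), against 18.3% of the neighbours of all 235 and 17% of all genes. In 3 of the 5 pairs both moved the same way: Gm31734 with Tcf7l2, Gm32384 with Rangrf, and Gm42048 with Klhdc4 (log2 fold changes -0.53 and -0.58). In the other 2 they moved in opposite ways: the antisense RNA 9130019P16Rik fell by 0.66 on the log2 scale and Chn2 rose by 0.66, and Gm34087 fell while Arhgef28, 276704 bases away, rose by 1.66. Gm42048, 9130019P16Rik and Gm34087 were chosen for mention after their values were seen. Rangrf had 14.8, 14.2, 12.8 and 18.0 CPM in the high and 20.2, 24.6, 21.8 and 20.9 in the negative libraries (log2 fold change -0.56, SE 0.162, adjusted p = 0.0148). Across pairs, Spearman's rho between the 2 fold changes was 0.35 over 87 overlapping pairs, 0.22 over 97 pairs within 10 kb and 0.32 over 51 pairs farther apart. These are correlations across genes, which share libraries and are not independent replicates, and overlapping pairs may also share reads.

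**Figure D5:**
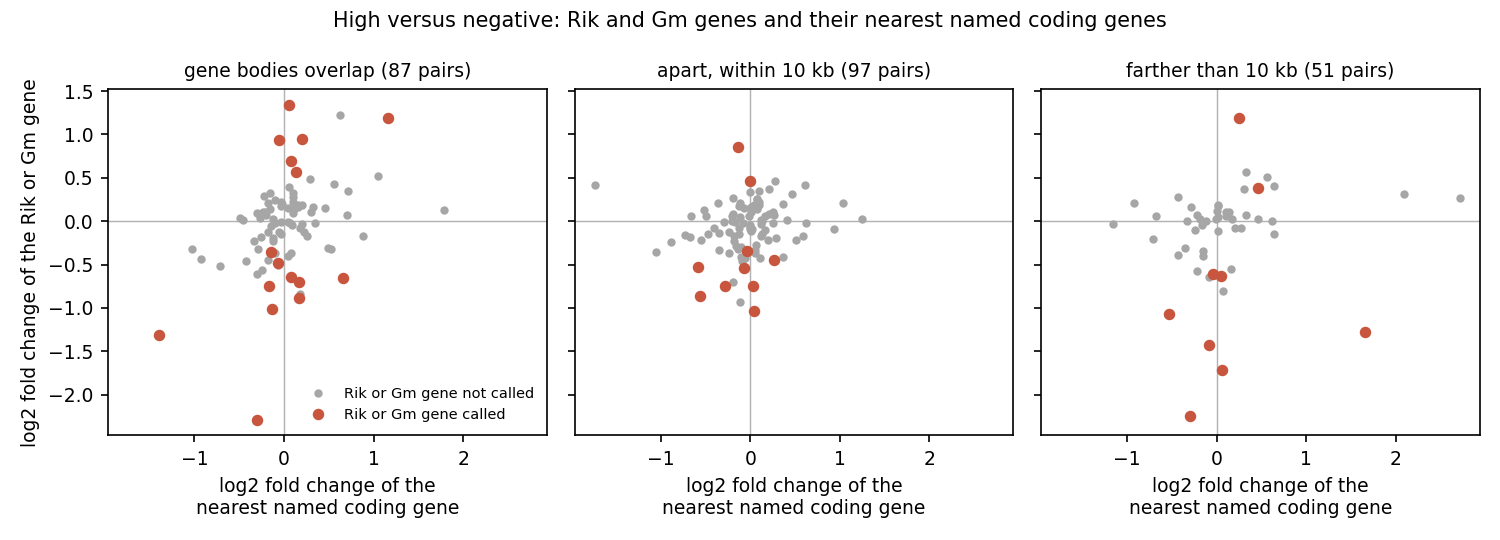
Log2 fold change of high versus negative of each gene of provisional name (vertical axis) against that of its nearest named coding gene (horizontal axis), for overlapping pairs (87), pairs within 10 kb (97) and farther pairs (51). Called genes of provisional name are in red; most of them lie near 0 on the horizontal axis.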

How the data were processed

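The authors deposited raw counts, whole numbers for 35976 genes in 16 libraries, with no normalization. Per the submitters' processing notes, cutadapt 1.18, STARsolo 2.7.9a, DESeq2 1.42.0 and build GRCm38 were used; for annotation, strand setting and collapsing of molecular identifiers, nothing is given in the sources used here. Each column was assigned to its sample by its name. In 24 pairs of libraries within gates the smallest chi-square per degree of freedom was 3.98, so none was counted as a duplicate.

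Counts of all genes were fitted with edgeR 4.0.16 in R 4.3.3 with the 4 gates as groups: its expression filter (13891 genes kept), TMM scaling (factors 0.97 to 1.05), robust quasi-likelihood tests and Benjamini-Hochberg adjustment over all genes tested, at 0.05. All adjusted p-values of genes come from this test. CPM are counts divided by the scaled library size, so levels of different genes are not per length. Standard errors are the log2 fold change over the square root of F. The steps were tested on simulated data.

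The genes and lists were chosen with earlier results of these data known. Named were called genes whose sign held in all 4 same-numbered pairs and whose higher gate had at least 5 CPM, by fold change (12 rises and 12 falls for high versus negative, up to 6 each for medium and low versus negative, up to 4 each for neighbouring gates), the 8 with most counts, 2 of each class by p, and a fixed set. Positions and neighbours come from GENCODE M21 (GRCm38) and the RefSeq table. The labels number the libraries of each gate without saying what a number marks, so the replicate number was not a term. The alternatives run were DESeq2 1.42.0, RLE scaling, a replicate block, no filter, libraries thinned to the smallest total, leaving out each library, the 2 compared gates alone, the fit without low 1 and medium 2, which stand apart within their gates, and, added after the data were seen, a spread not estimated robustly.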

Additional observations from a re-analysis of the deposited data

Results flagged for a closer look

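In 9 of 176 sets of 4 libraries (44 named genes in 4 gates), 1 library lay far from the other 3; chance gives about 1 in 20. In the negative gate, 3010026O09Rik was at 25.18 CPM in negative 2, against 31.12 to 32.24 in the others, and Gm36449 at 36.04 CPM in negative 4, against 19.6 to 20.66. In the low gate, 5730559C18Rik was at 57.62 CPM in low 1, against 48.39 to 49.84, and 1110008L16Rik at 24.95 CPM in low 4, against 19.43 to 19.63. In the medium 2 library, Gm3718 was at 13.03 CPM, against 27.95 to 30.77 in the other medium libraries, and 2700094K13Rik at 562.9 CPM, against 800.2 to 848.7. In the high gate, 5730559C18Rik was at 77.23 CPM in high 3, against 70.06 to 70.84, 0610009O20Rik at 91.31 CPM in high 2, against 72.91 to 74.87, and 4933434E20Rik at 97.58 CPM in high 3, against 83.4 to 84.48.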

How the results depend on the processing

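The 41 genes called between high and negative overlapped with 33 to 41 of the calls under every alternative run. Counts moved by more than 1.5 times as follows. With no filter on low counts, 12 genes rose in medium and 6 in low against negative, 1 rose and 1 fell in medium against low, and 2 rose and 3 fell in high against medium. With the replicate block, 4 rose in low against negative and 3 fell in high against medium. The block called 45 genes between high and negative, 40 of them shared. Same-numbered libraries had correlated deviations (over 0.1) in 6 of 24 pairs, and 0 of 16 libraries correlated best with their own number in each other gate. The mitochondrial share was highest in number 4 in every gate, between 2.18% and 2.42%; the labels do not say whether a number marks 1 culture or sort. After thinning, 0 rose in low against negative. Without low 1 and medium 2, 1 rose in low against negative, and 4 rose and 10 fell in high against medium. With only the 2 gates compared, 1 rose in low against negative and 2 rose in high against medium. With a spread not estimated robustly these were 1 in low, and 2 fell in high against medium, as with DESeq2 (2). The cause was not tested.

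With single libraries left out, counts ran from 9 to 13 higher and 23 to 36 lower for high versus negative, 3 to 10 and 7 to 13 for medium versus negative, 0 to 3 and 4 to 8 for low versus negative, 0 to 0 for medium versus low in either direction, 1 to 2 and 1 to 5 for high versus medium, and 23 to 47 for any gate. Of the named genes' values, 5081 kept direction and side of the threshold, 150 lost it, 49 gained it and none reversed. Another scaling moved the median log2 fold change of all genes by little, to between -0.01 and 0.03. Intervals cover counting and library spread only, and a single count in the smallest library equals 0.306 CPM before TMM scaling.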

Other observations

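A few genes of provisional name varied more between the libraries of a gate than between gates. They were chosen for their spread, so their values are a description. The within-gate coefficient of variation had a median of 17.1% over the 295 genes, and it was 76.4% for G630025P09Rik and 70.3% for Gm32616. G630025P09Rik was at 5.83, 14.6, 17.6 and 22.5 CPM in the negative, 77.1, 7.42, 14.5 and 15.1 in the low, 10.2, 98.8, 13.7 and 20.2 in the medium and 43.2, 22.5, 42.1 and 34.1 in the high libraries. It was highest in medium 2 and low 1, the libraries that stand apart within their gates. Gm32616 was at 2.75, 12.0, 18.6 and 15.9, 41.3, 6.89, 8.75 and 6.67, 6.89, 23.8, 8.81 and 7.93 and 13.1, 5.82, 21.3 and 23.7 CPM in the same order, with its highest value in low 1. Gm36198, a far more abundant transcript, was at 91.4, 167, 319 and 189.5, 414, 161, 181 and 129, 163, 349, 157 and 169.6 and 239.5, 135, 228 and 254 CPM, again highest in low 1 and medium 2. 2610020C07Rik was at 57.5 CPM in low 1 and at no more than 12.6 CPM in every other library. None of the 4 was called between high and negative (adjusted p = 0.39, 0.803, 0.866 and 0.801).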
